A study of Mus musculus with 25 samples.

Results

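Acute phase proteins are plasma proteins whose synthesis in the liver changes when tissue is injured or infected. Cytokines such as interleukin 6, interleukin 1 and tumour necrosis factor act on hepatocytes through STAT3, C/EBP and NF-kB factors, and the mRNAs of the positive acute phase proteins then accumulate while those of negative ones, such as albumin and transthyretin, decline. Several of these proteins are also made outside the liver, by macrophages, adipocytes and the epithelia of mucosal and reproductive tracts. The data described here are the levels of 10 of these mRNAs in mouse sperm RNA. They are the serum amyloid A genes Saa1, Saa2, Saa3 and Saa4, the orosomucoid (alpha-1-acid glycoprotein) genes Orm1 and Orm2, the neutrophil gelatinase-associated lipocalin gene Lcn2, the pentraxin genes Apcs (serum amyloid P) and Crp (C-reactive protein), and the inter-alpha-trypsin inhibitor heavy chain gene Itih4. They were taken by gene symbol and make up 10 of the 24358 genes in the deposited table, and none of their estimates had failed. The group was proposed because of measured values, namely the low Saa2 count of exposed C57BL/6J against its control beside the counts of liver genes, so its members were selected on that comparison and every value of it is given as a description.

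The table covers 5 conditions of 5 libraries each, 25 libraries in all, made from RNA of sperm that swam out of the cauda epididymidis of 14-week-old males. The C57 controls (condition C57.CTL.F1) and the FVB controls (FVB.CTL.F1) are first-generation males whose C57BL/6J or FVB/N dams received corn oil. The exposed C57 sons (C57.D300.F1) and exposed FVB sons (FVB.D300.F1) come from dams given 300 mg/kg/day of the plasticizer di(2-ethylhexyl)phthalate (DEHP) in corn oil by mouth from embryonic day 9 to 19. The C57 grandsons (C57.D300.F2) were sired by males of that exposed C57BL/6J line out of unexposed females, and were not themselves exposed in utero. No second-generation control was used here. The 10 libraries of the C57 controls and exposed C57 sons are labelled as a re-analysis and the 15 libraries of the other 3 conditions are not, so in any comparison across these sets the library set cannot be told apart from strain or generation.

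Each gene has 1 estimated fragment count per condition, combined by Cuffdiff over the 5 libraries, with a model variance. The counts summed to between 6921688 and 8602900 per condition, and 15883 to 16612 genes had at least 10 counts. Values after ± are the model's SD of the count, which is not a spread between libraries. No library values were used here, so no comparison has a replicate check or a p-value. A gene was called higher or lower in a comparison at 2 log2 units, with 1 added to each count, if it had at least 10 counts in one of the compared conditions. Intervals given for folds are 95% intervals for counting error only, with each rounded condition value taken as a raw count. The labelled cell type was checked with 8 germ cell and sperm genes (protamines, transition proteins and tail proteins), which summed to 83012 counts in C57 controls and to 6862 in FVB controls, the highest and lowest of the 5 conditions. The 10 hepatocyte markers, albumin among them, summed to 232848 counts in C57 controls, 217121 in exposed C57 sons, 6152 in C57 grandsons, 1557 in FVB controls and 1136 in exposed FVB sons. In such bulk RNA, fewer cells of a type and less RNA per cell cannot be told apart.

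The genes lie in 3 groups and 2 single loci of GRCm38 (GENCODE M21). The Saa genes span 42.3 kb of chromosome 7, from 46711998 to 46754313, with Saa3, Saa4 and Saa1 on the minus strand and Saa2 on the plus strand. Orm1 and Orm2 lie on the plus strand of chromosome 4 between 63344560 and 63365878, with Orm3 between them. Crp and Apcs lie on opposite strands of chromosome 1, from 172698055 to 172895041. Lcn2 is at chr2:32384633-32388252 on the minus strand and Itih4 at chr14:30886476-30902353 on the plus strand. All 10 are annotated as protein-coding, and the counts cover their exons as the authors' annotation defined them.

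Promoter windows of 300 bases (250 before to 50 after the transcript start, RefSeq, GRCm38.p6) were found for 9 of the 10 genes, Orm1 being the other. The windows of Saa1, Saa2, Saa3 and Orm2 are shown because the first 2 and Orm2 were the called genes in exposed C57BL/6J while Saa3, from the same cluster as Saa1 and Saa2, had nearly equal counts there. Each reads 5' to 3' on the strand of its gene, with matches to the C/EBP motif TTGCNNAA, searched on both strands, in capitals.
Saa1, chr7:46742931-46743230, minus strand: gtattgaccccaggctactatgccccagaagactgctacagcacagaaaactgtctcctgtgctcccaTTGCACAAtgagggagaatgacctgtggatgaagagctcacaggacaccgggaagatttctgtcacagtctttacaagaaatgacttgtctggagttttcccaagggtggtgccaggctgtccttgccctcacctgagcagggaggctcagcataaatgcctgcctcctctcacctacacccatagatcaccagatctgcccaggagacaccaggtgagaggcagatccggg
Saa2, chr7:46751583-46751882, plus strand: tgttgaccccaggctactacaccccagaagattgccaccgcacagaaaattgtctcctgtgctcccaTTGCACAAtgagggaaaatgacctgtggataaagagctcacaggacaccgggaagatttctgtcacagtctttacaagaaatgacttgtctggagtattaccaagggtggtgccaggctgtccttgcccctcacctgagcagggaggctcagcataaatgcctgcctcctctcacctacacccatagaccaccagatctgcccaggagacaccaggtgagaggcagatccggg
Saa3, chr7:46715627-46715926, minus strand: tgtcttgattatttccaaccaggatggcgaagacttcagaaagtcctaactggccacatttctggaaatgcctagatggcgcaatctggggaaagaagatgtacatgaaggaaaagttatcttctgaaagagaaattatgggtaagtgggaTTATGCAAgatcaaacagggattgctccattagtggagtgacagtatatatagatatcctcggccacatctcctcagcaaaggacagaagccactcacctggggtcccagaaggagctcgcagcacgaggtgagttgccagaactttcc
Orm2, chr4:63362199-63362498, plus strand: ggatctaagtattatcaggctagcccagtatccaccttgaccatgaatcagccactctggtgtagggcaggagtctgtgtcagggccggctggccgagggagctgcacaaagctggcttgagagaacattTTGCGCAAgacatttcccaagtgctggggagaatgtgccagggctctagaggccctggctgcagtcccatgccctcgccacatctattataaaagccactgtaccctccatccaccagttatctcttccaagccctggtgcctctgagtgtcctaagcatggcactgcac
The windows of Saa1 and Saa2 were 95.3% identical (287 of 301 aligned positions), against 50.9% for Saa1 and Saa3 and 46.8% for Saa1 and Saa4. The C/EBP motif matched in 6 of 9 windows, those of all 4 Saa genes, Orm2 and Lcn2, and in 10.8% of 32851 windows of all genes. In Saa1 and Saa2 the match began at -182 and -183 from the transcript start with the same 8 bases. The STAT3 motif TTCNNNGAA matched in Apcs (at -244) and Itih4 (at -51), 2 of 9 windows, against 8.30% of all windows. The TATA box motif TATAAA, on either strand, matched in Orm2, Crp and Itih4, 3 of 9 windows against 13.6%, and its match in Itih4 was on the opposite strand at -3. NF-kB and hormone response element motifs matched in 0 of the 9 windows, and in 0.411% and 0.00913% of all windows. These matches are letters in a window and say nothing of binding.

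**Figure D1:**
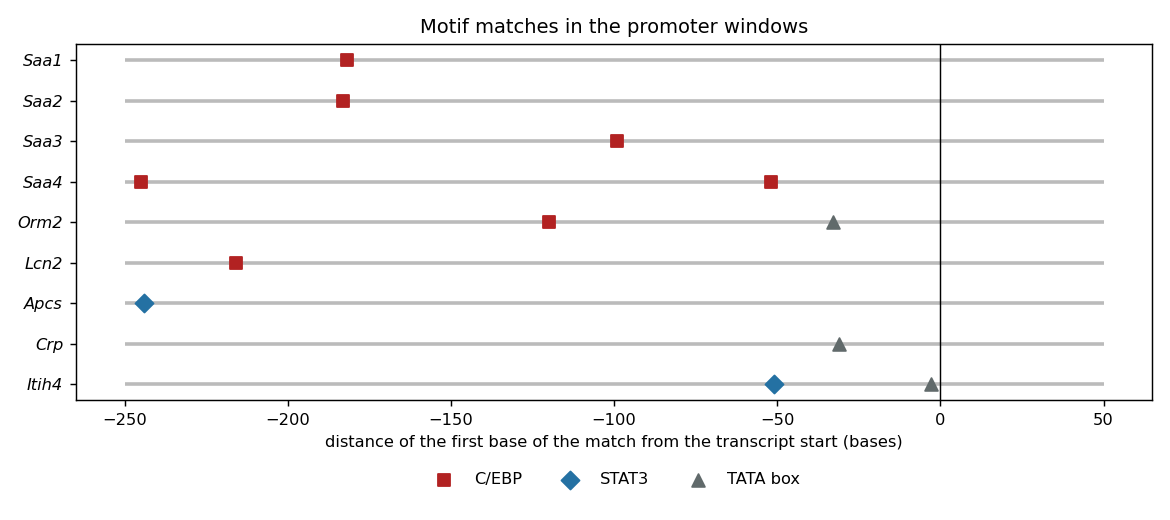
Positions of motif matches in the promoter windows of 9 acute phase genes, as the distance in bases of the first base of the match from the transcript start (0), with 1 grey line per window. C/EBP matches (red squares) lie in 6 windows, at -182 in Saa1 and -183 in Saa2, and STAT3 matches (blue diamonds) in those of Apcs and Itih4.

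Near-identical copies limit how reads were divided. Of the 18-base words of the longest Saa1 transcript, 44.3% also occur in Saa2, and 41.3% of those of Saa2 occur in Saa1, where 18 bases was the shortest read kept. At 50 bases the shares were 9.11% and 8.46%. Orm1 and Orm2 shared 36.5% of their 18-base words and 20.4% of those of 50 bases. Orm3 also held 14.8% of the 18-base words of Orm1 and 24.0% of those of Orm2. The separate counts of Saa1 and Saa2, and of Orm1, Orm2 and Orm3, are therefore uncertain in how they divide common reads.

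The 4 serum amyloid A mRNAs had different profiles. SAA1 and SAA2 are the acute phase apolipoproteins of high-density lipoprotein, made in the liver and strongly induced by inflammation. Saa1 had 1092 ± 407 counts in C57 controls, 27.9 ± 11.1 in exposed C57 sons, 10.7 ± 5.10 in C57 grandsons, 6.04 ± 3.63 in FVB controls and 6.12 ± 4.38 in exposed FVB sons. Saa2 had 1304 ± 517, 13.0 ± 6.00, 4.73 ± 3.00, 1.41 ± 1.41 and 3.48 ± 3.00 counts in the same order. Both were thus high in the control C57BL/6J condition alone among the 5. The ratio of Saa2 to Saa1 was 1.19 there and 0.467 in exposed C57 sons, 0.443 in C57 grandsons, 0.233 in FVB controls and 0.568 in exposed FVB sons, the last 3 of which rest on few counts.

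SAA3 is made mostly outside the liver, by macrophages, adipocytes and epithelia. Saa3 had 198 ± 48.9 counts in C57 controls, 187 ± 48.1 in exposed C57 sons, 39.5 ± 13.9 in C57 grandsons, 15.0 ± 7.21 in FVB controls and 55.4 ± 23.3 in exposed FVB sons. It was nearly equal in the first 2 conditions, and higher in exposed than in control FVB/N. SAA4 is the constitutive serum amyloid A of lipoproteins and is little induced by inflammation. Saa4 had 771 ± 233, 308 ± 107, 24.6 ± 9.80, 10.6 ± 5.00 and 5.40 ± 3.46 counts in the same order, a decline across the conditions with no value as low in exposed C57 sons as those of Saa1 and Saa2.

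The orosomucoids are plasma carriers of drugs and lipids that dampen immune responses. Orm1 had 2276 ± 861 counts in C57 controls, 913 ± 339 in exposed C57 sons, 28.3 ± 11.3 in C57 grandsons, 17.9 ± 7.21 in FVB controls and 8.53 ± 4.51 in exposed FVB sons. Orm2 had 119.5 ± 34.8, 14.2 ± 6.40, 1.33 ± 1.73, 0 and 0.754 ± 1.41 counts in the same order, so that its last 3 values lay under the 3 counts taken as the limit of detection. Both were highest in C57 controls, and Orm2 amounted to 0.0525 of Orm1 there and to 0.0155 of it in exposed C57 sons.

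The pentraxins are ring-shaped proteins that bind microbial surfaces and nuclear debris. In mice, Apcs is the inducible one and Crp is only weakly induced. Apcs had 405 ± 120 counts in C57 controls, 158 ± 51.1 in exposed C57 sons, 5.99 ± 3.46 in C57 grandsons, 1.77 ± 1.77 in FVB controls and 0.566 ± 1.00 in exposed FVB sons. Crp had 717 ± 203, 448 ± 148, 24.1 ± 9.38, 19.4 ± 7.81 and 19.9 ± 7.68 counts in the same order. Apcs amounted to 0.565 of Crp in C57 controls and 0.354 in exposed C57 sons, and Crp alone of the pair kept over 10 counts in the 3 conditions of the other library set. Itih4, a kallikrein-cleaved plasma glycoprotein, had the highest count of the 10 in both F1 conditions of C57BL/6J. Its counts were 5151 ± 2267 in C57 controls, 3993 ± 2493 in exposed C57 sons, 150.9 ± 45.1 in C57 grandsons, 64.8 ± 19.5 in FVB controls and 42.6 ± 14.3 in exposed FVB sons. The model's coefficient of variation of 0.624 in exposed C57 sons was 1.82 times the median of genes of similar count.

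Lcn2 binds bacterial siderophores and so withholds iron, and is made by neutrophils, liver and many epithelia. It had 404 ± 99.4 counts in C57 controls, 309 ± 72.2 in exposed C57 sons, 675 ± 185 in C57 grandsons, 638 ± 176 in FVB controls and 1113 ± 546 in exposed FVB sons. It was the one gene of the 10 whose counts in the 3 conditions with few hepatocyte-marker counts were above those of both first-generation C57BL/6J conditions. It made up 3.25% of the summed counts of the 10 genes in C57 controls, 4.85% in exposed C57 sons, 69.9% in C57 grandsons, 82.3% in FVB controls and 88.6% in exposed FVB sons. Without it, the other 9 genes summed to 12034, 6063, 290.1, 137 and 143 counts in the same order. In exposed FVB sons its model coefficient of variation, 0.491, was 1.93 times that of genes of similar count.

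**Figure D2:**
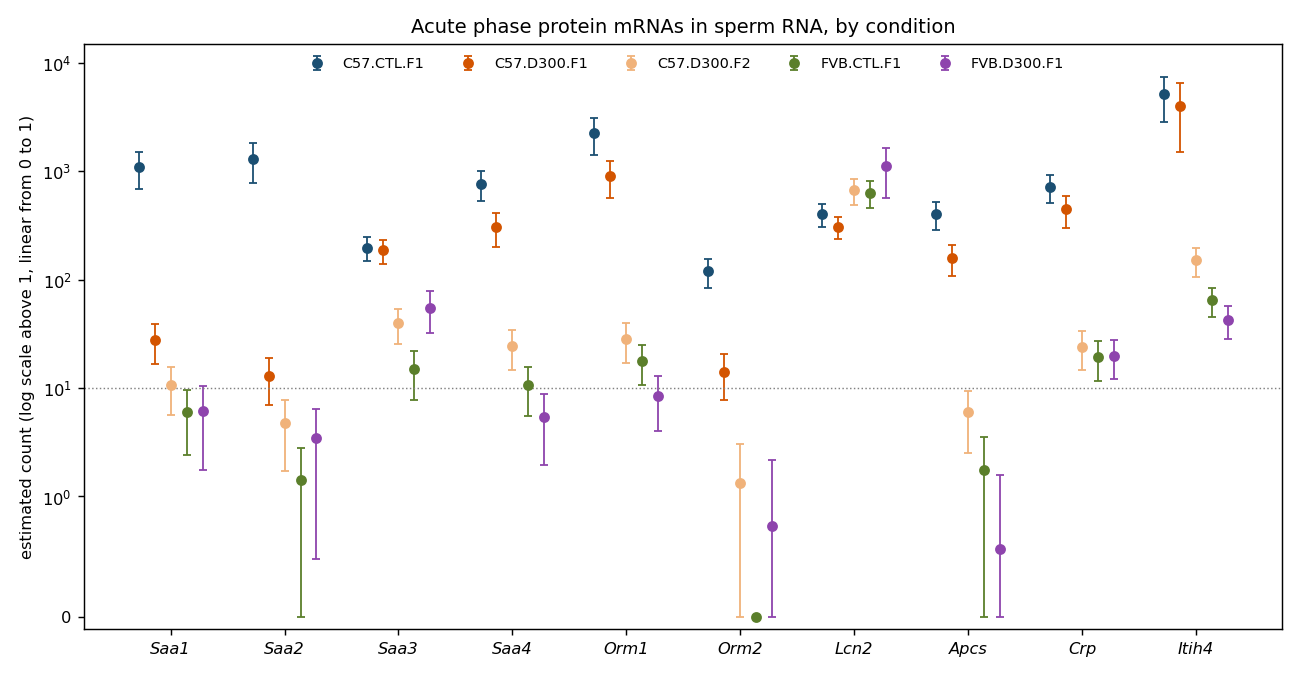
Estimated counts of the 10 acute phase genes in the 5 conditions (log scale above 1, linear below), 1 point per condition with the model's SD as the bar and a dotted line at 10 counts. Saa1 and Saa2 lie above 1000 in C57 controls and below 30 in the other 4, while Lcn2 lies between 309 and 1113 in all 5.

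Levels can be compared between genes only per length. Per kilobase of exon, which for the Saa genes, Lcn2 and Crp includes long alternative transcripts, Orm1 was highest in C57 controls with 2937 counts, followed by Itih4 with 1396, Saa2 with 518, Saa1 with 441, Apcs with 417, Saa4 with 368, Crp with 208, Orm2 with 154.2, Lcn2 with 154.0 and Saa3 with 76.0. Of the 9 neighbouring pairs in that order, 4 differed by more than the model's SD of their difference, namely Orm1 over Itih4, Itih4 over Saa2, Saa4 over Crp and Lcn2 over Saa3. Per kilobase of coding sequence, a length chosen after seeing the data, Saa2 with 3564 and Saa1 with 2984 counts came directly after Orm1 with 3665, and Itih4 had 1823. Lcn2 was highest on both scales in C57 grandsons, FVB controls and exposed FVB sons, with 257, 243 and 424 counts per kilobase of exon, and was above the second gene by more than the model's SD each time.

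In C57BL/6J, exposed F1 sperm was set beside its control. The 10 genes were selected on it, so its values are a description and nothing is read from its counts. The count of Saa2 was 100.2-fold lower in exposed C57 sons (58.5 to 189) and that of Saa1 39.2-fold lower (26.8 to 59.0), with log2 ratios of -6.54 and -5.24. Orm2 was 8.44-fold lower (4.91 to 16.2), with a log2 ratio of -2.99. These were the 3 of 10 genes called lower, where 0.256% of the 16825 genes tested were, and 0 of 10 were called higher, where 0.0357% were. The difference exceeded the model's SD for 7 genes, the 3 named and Saa4, Orm1, Apcs and Crp.

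The other 7 genes ranged less. Saa4, Orm1 and Apcs were 2.50-fold, 2.49-fold and 2.56-fold lower, Crp 1.60-fold, Lcn2 1.31-fold and Itih4 1.29-fold lower. Saa3 was 1.06-fold lower, and its counting interval of 0.863 to 1.30 included no difference. All 10 log2 ratios were below 0, with a median of -1.32 against -0.01 over all genes tested and -0.29 over the 10 hepatocyte markers.

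**Figure D3:**
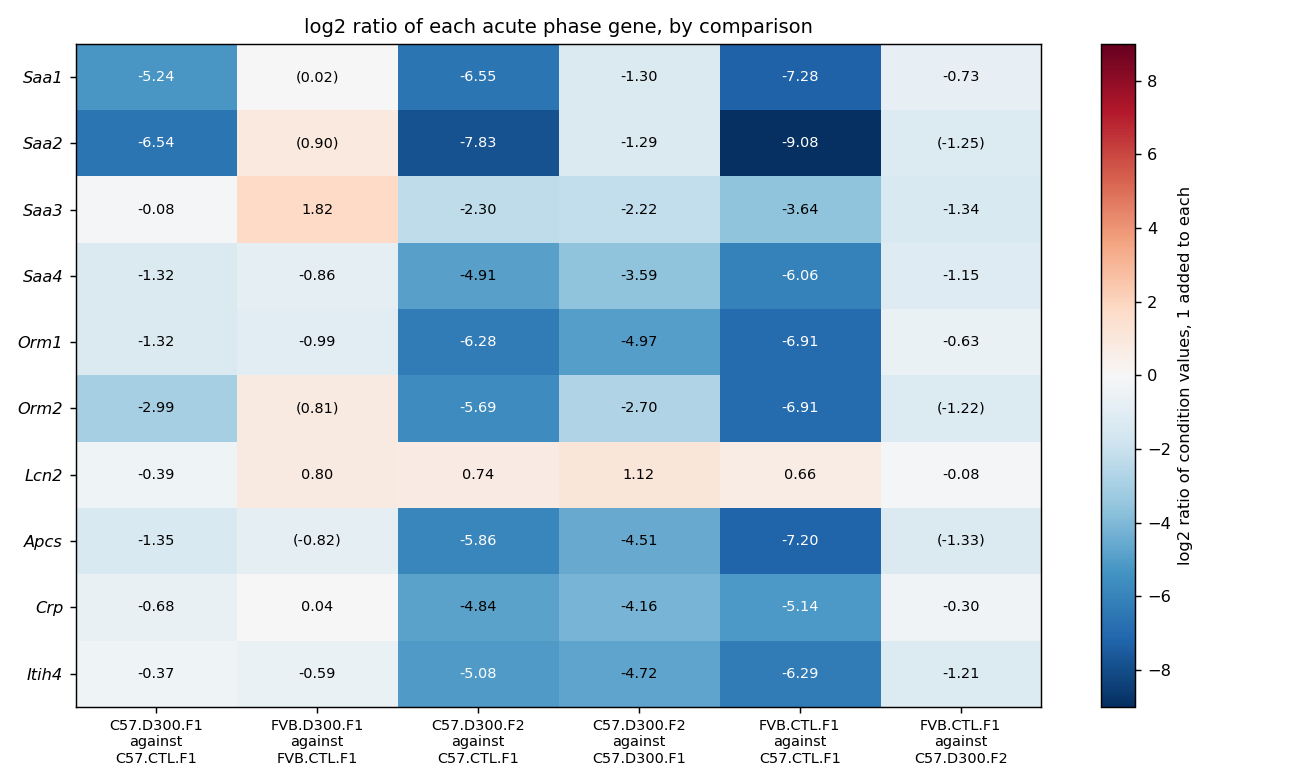
Log2 ratios of the 10 acute phase genes (rows) in 6 comparisons of conditions (columns), with 1 added to each count, blue for lower and red for higher in the first-named condition, and values in brackets for genes under 10 counts in both. The strongest blue in exposed against control C57BL/6J is in Saa1 (-5.24) and Saa2 (-6.54), and Lcn2 is the one row that is red in the columns against C57 controls other than the first.

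The acute phase genes outside the group, taken from textbook knowledge with earlier results of these data known, were described in the same comparison. Of 24 other positive acute phase genes, 23 were tested, 1 was called lower and 0 were called higher, and 15 were below 0, with a median of -0.53. The called gene was Fgl1, a hepatokine of the fibrinogen family, with 1730 counts in C57 controls and 369 in exposed C57 sons (log2 ratio -2.23). Steap4, a metalloreductase, had 759 and 225 counts (-1.75), and Hp, which binds free haemoglobin, had 5540 and 2166 (-1.35). Serpina3m had 226 and 234 counts (0.05), and Hamp, the iron hormone hepcidin that interleukin 6 induces, had 387 and 476 (0.30).

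The 10 negative acute phase genes had a median of -0.05 with 0 called in either direction. Ttr, the thyroxine carrier transthyretin, had 38822 and 17995 counts (-1.11), and Alb had 83529 and 100464 (0.27). Among 11 relatives of the group in the table, 8 were tested and 1 was called lower. This was the third orosomucoid gene Orm3, with 29.5 counts in C57 controls and 2.96, under the limit of detection, in exposed C57 sons (-2.94). Its neighbours Orm1 and Orm2 had log2 ratios of -1.32 and -2.99. Other heavy chains of the inter-alpha-trypsin inhibitor family, Itih1, Itih2 and Itih3, had log2 ratios of -0.14, 0.09 and -0.35, beside -0.37 for Itih4.

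Of 25 inducing cytokines, receptors and factors, 23 were tested and 0 were called. Their median was -0.09. Socs3, the feedback inhibitor of interleukin 6 signalling, was lowest with 176 counts in C57 controls and 78.4 in exposed C57 sons (-1.16), and Cebpb, a factor that drives acute phase promoters, had 424 and 222 (-0.93). Stat3 had 1626 and 1372 counts (-0.25). The cytokines themselves were few, with 10.3 and 8.77 counts for Il6 and 50.7 and 38.5 for Il1b.

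Seminal vesicle markers were also lower in this comparison. All 8 of them, secreted proteins of the seminal fluid, were called lower in exposed C57 sons, with a median of -10.73 and a range from -14.06 (Svs5) to -4.06 (Spinkl). Their summed level was 243563 counts in C57 controls, 1151 in exposed C57 sons and 1789 in C57 grandsons. In FVB controls it was 2525 and in exposed FVB sons 2317, so this sum too was high in C57 controls alone. No marker was at 0 in any condition, although some were under 3 counts outside the C57 controls. Of the 10 hepatocyte markers, 4 were also in the acute phase lists, Alb, Ttr and Apoa1 as negative genes and Fgb as a positive one. Macrophage markers had 0 of 7 called, with a median of 0.30. Of the neutrophil markers, Ngp, Camp and Elane had at most 3 counts in each condition and S100a9 alone of the list was called lower, with 49.6 counts in C57 controls and 5.53 in exposed C57 sons. Among prostate and coagulating gland markers 1 of 3 tested was called lower, Spink1, with 14805 counts in C57 controls and 0 in exposed C57 sons, while 0 of 8 germ cell and sperm, 0 of 5 adipocyte, 0 of 6 smooth muscle and connective tissue, 0 of 5 epididymis and 0 of 3 red cell markers were called in either direction. The part of the seminal vesicle RNA in the lower Saa1, Saa2 and Orm2 counts was not tested.

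**Figure D4:**
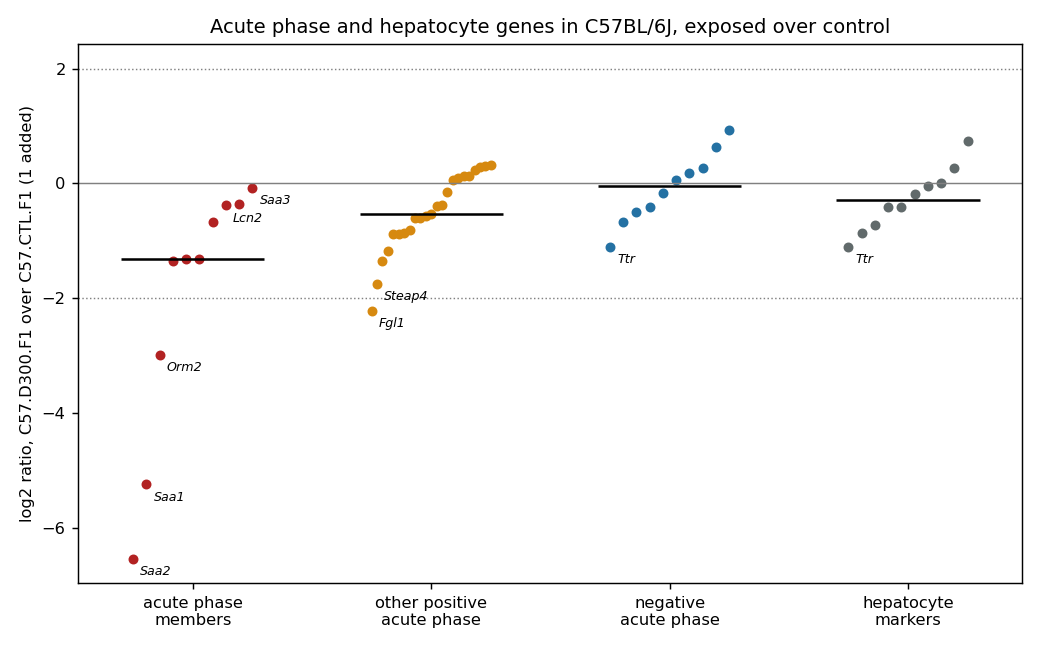
Log2 ratios of single genes (points) in exposed C57 sons over C57 controls, with 1 added to each count, for the 10 acute phase genes, the other positive and the negative acute phase genes and the hepatocyte markers with at least 10 counts in one of both conditions, with the median of each list as a black bar and the thresholds dotted. Saa2 (-6.54), Saa1 (-5.24) and Orm2 (-2.99) lie below all genes of the other 3 lists, whose lowest is Fgl1 (-2.23).

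In FVB/N, where exposed and control libraries belong to the same set, 6 of the 10 genes had at least 10 counts in one of both conditions. None of the 6 was called, with 0.662% of the 16471 genes tested called higher and 0.0182% lower. Saa3 had the largest difference, 3.70-fold higher in exposed FVB sons (2.04 to 6.99, log2 ratio 1.82), and it exceeded the model's SD. Lcn2 was 1.75-fold higher (1.58 to 1.93, log2 ratio 0.80), within the model's SD. Orm1 was 2.10-fold lower (0.853 to 5.05, log2 ratio -0.99), which exceeded the model's SD while its counting interval included no difference. Saa4 was 1.96-fold lower, Itih4 1.52-fold lower and Crp 1.03-fold higher. The median of the 6 was -0.28, against -0.42 over the hepatocyte markers.

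Saa1 and Saa2 had under 10 counts in both conditions of this strain. Saa1 had 6.04 counts in FVB controls and 6.12 in exposed FVB sons, a ratio of 1.01 with a counting interval of 0.267 to 3.74. This interval covers counting error only, and the difference was within the model's SD of 5.69 counts. For Saa2, with 1.41 and 3.48 counts, the ratio was 2.47 with an interval of 0.241 to 157. Of 17 other positive acute phase genes tested, 0 were called, with a median of -0.21. Epididymis markers were called higher in 9 of 10 cases in exposed FVB sons, with a median of 7.22. Their summed counts ran over the 5 conditions from 25142 to 70089. Of the lowest sum, in C57 controls, Cd52, the one marker not called, had 24861 counts. Cd52 had 32765 counts in FVB controls and 30497 in exposed FVB sons. In the same order Lcn5 had 9.18 and 6686 counts and Gpx5 71.4 and 24121. No marker was at 0 in any condition, although some were under 3 counts outside exposed FVB sons. Of the red cell markers, 2 of 3 were called higher as well. Of the cells known to make Saa3 and Lcn2, macrophage markers had 0 of 7 called (median -0.14) and adipocyte markers 0 of 5 (median -0.27). Of 4 neutrophil markers tested, S100a9 was called higher, with 3.36 counts in FVB controls and 24.1 in exposed FVB sons. Its more abundant partner S100a8 had 135 and 59.2 counts (-1.18) and Ltf 48225 and 41176 (-0.23), and Ngp, Camp, Mpo and Elane had at most 4.96 counts in any condition. Among 3 prostate and coagulating gland markers tested, Pbsn was called higher (3.64), with Tgm4 at 1.12 and Azgp1 at -0.92. The part of the epididymal, red cell, neutrophil, prostate and coagulating gland RNA in the Saa3 and Lcn2 counts was not tested.

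The difference between the strains' responses, the log2 ratio in FVB/N minus that in C57BL/6J, was called positive for 3 of 10 genes, Saa2 (7.44), Saa1 (5.26) and Orm2 (3.80), and negative for 0 of 10. Of the 17556 genes tested, 0.997% were called positive and 0.228% negative. For these 3 genes both FVB/N counts were under 10, so the value restates the C57BL/6J comparison that chose the group. Saa3 had 1.90 and Lcn2 1.19, with the other 5 genes between -0.23 and 0.72. Seminal vesicle markers were called positive in 8 of 8 cases, with a median of 10.64.

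The second-generation C57BL/6J condition was set beside both first-generation ones, across the library sets. Against C57 controls, 9 of 10 genes were called lower, where 3.61% of the 17114 genes tested were, and 0 of 10 higher, where 0.584% were. Saa2 had the lowest log2 ratio (-7.83) and Saa3 the highest of the 9 (-2.30), while Lcn2 was 1.67-fold higher (1.47 to 1.89, log2 ratio 0.74). The median of -5.39 lay beside -5.08 over the hepatocyte markers, all 10 of which were called lower. Seminal vesicle markers were called lower in 8 of 8 cases as well, with a median of -8.91. Among 4 prostate and coagulating gland markers tested, Pbsn (4.09) and Tgm4 (2.69) were called higher and Spink1 (-11.40) and Azgp1 (-2.04) lower. The part of either list in the differences was not tested.

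Against exposed C57 sons, 7 of 10 genes were called lower, where 3.3% of the 17133 genes tested were, and 0 of 10 higher, where 0.333% were. The hepatocyte markers again were 10 of 10 lower, with a median of -4.96 and their least negative value at -4.28 (Pck1). Saa1 was 2.61-fold lower (1.23 to 5.67) and Saa2 2.75-fold lower (0.870 to 9.31), with log2 ratios of -1.30 and -1.29, so neither was called. Orm1 (-4.97), Itih4 (-4.72), Apcs (-4.51) and Crp (-4.16) lay near the hepatocyte median, and Saa4 (-3.59), Orm2 (-2.70) and Saa3 (-2.22) above it. Orm2 had 1.33 counts in C57 grandsons, under the limit of detection, and with values under 3 counts set to 3 it lost its call, which left 6 genes called lower. With 10 added in place of 1, 5 were called lower, without Orm2 (-1.09) and Saa3 (-1.99). Lcn2 was 2.18-fold higher (1.91 to 2.51, log2 ratio 1.12). Of the neutrophil markers, 4 of 4 tested were above 0 and S100a8 was called higher (2.05). The untested ones, Ngp, Camp, Mpo and Elane, had at most 3.81 counts in either condition. Of the seminal vesicle markers, 4 of 8 were called higher (median 1.83). Among 3 prostate and coagulating gland markers tested, Pbsn (5.64) and Tgm4 (2.34) were called higher, while Azgp1 was at -1.67. The part of neutrophil, seminal vesicle, prostate and coagulating gland RNA in the Lcn2 difference was not tested.

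The control strains were compared across the library sets as well. In FVB controls against C57 controls, 9 of 10 genes were called lower, where 8.88% of the 17086 genes tested were, and 0 of 10 higher, where 1.44% were. The median was -6.60, beside -7.20 over the hepatocyte markers. Also called lower were 8 of 8 seminal vesicle markers (median -9.62), 8 of 8 germ cell and sperm markers (median -2.76), 2 of 7 macrophage markers and 2 of 3 prostate and coagulating gland markers, and their part in the difference was not tested. Orm2 was at 0 in FVB controls, which makes its count at least 39.8-fold lower with 3 counts as the limit. The ratio of C57 to FVB controls for Saa2, from 1.41 counts in the latter, was 927 with a counting interval of 234 to 51544. Lcn2 was 1.58-fold higher in FVB controls (1.39 to 1.79).

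Within the library set not labelled as a re-analysis, FVB controls were also set beside C57 grandsons, which differ in strain, generation and lineage exposure. Of the 10 genes, 7 had enough counts and 0 were called, with 0.707% of the 16969 genes tested called higher and 2.5% lower. All 7 were below 0, from -1.34 (Saa3) to -0.08 (Lcn2), with a median of -0.73 against -1.91 over the hepatocyte markers. Of the 9 genes called lower between the control strains, 6 were tested here and 0 called, and both comparisons use the FVB controls.

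To relate the 10 mRNAs to hepatocyte-marker RNA in each condition, counts were divided by the sum of the hepatocyte markers and given per 100000 of their counts. Alb, Ttr, Apoa1 and Fgb, themselves acute phase genes, are among these markers, and Alb alone had 83529 of the 232848 counts of the sum in C57 controls. Saa2 then had 560.1 in C57 controls, 6.00 in exposed C57 sons, 76.9 in C57 grandsons and 306 in exposed FVB sons, and in FVB controls it lay under the limit of 193 set by 3 counts. Saa1 had 469, 12.8, 174, 388 and 539 in C57 controls, exposed C57 sons, C57 grandsons, FVB controls and exposed FVB sons. On this scale Saa1 was lowest in exposed C57 sons, and Saa2 was lower there than in the other conditions with over 3 counts. The levels of Saa1 in FVB controls and exposed FVB sons lay near that of C57 controls, but rest on 6.04 ± 3.63 and 6.12 ± 4.38 counts. They are too uncertain to show that the strains are alike on this scale.

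Over all 5 conditions, Itih4, Orm1 and Crp varied less than Saa1 relative to the hepatocyte markers. The low end of Saa1, 12.8, is in exposed C57 sons, a condition of the comparison that chose the group. Without that condition Saa1 ran from 174 to 539 and Crp from 308 to 1754. Itih4 had 2212, 1839, 2452, 4161 and 3749 in the same order of conditions, and Orm1 had 977, 421, 459.6, 1150.5 and 750.4. Crp had 308, 206, 392, 1246 and 1754. Lcn2 had 173, 142, 10971, 40941 and 97932, and Saa3 85.1, 86.2, 642, 962 and 4880. The ratios of Lcn2 and Saa3 thus did not follow the hepatocyte markers across conditions.

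**Figure D5:**
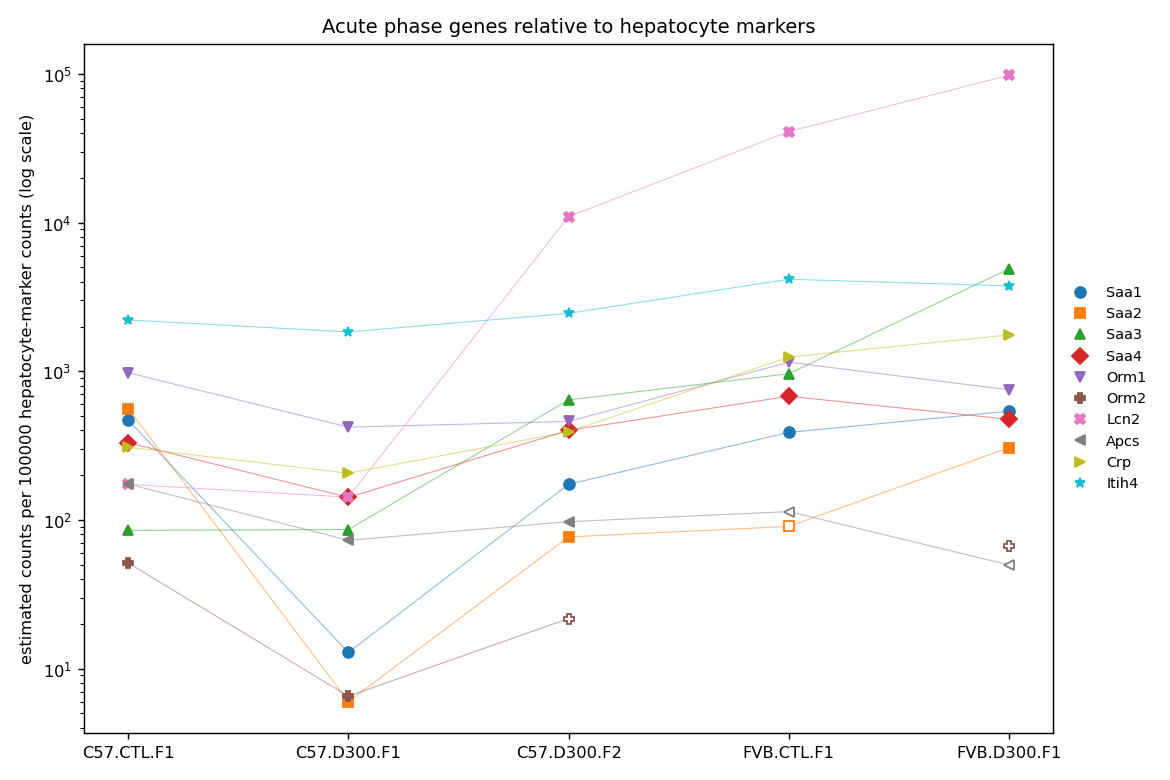
Counts of each acute phase gene per 100000 summed counts of 10 hepatocyte markers (log scale) in the 5 conditions, with hollow points for genes under 3 counts, no point for Orm2 at 0 in FVB controls and thin lines joining the values of a gene. Saa1 and Saa2 dip to 12.8 and 6.00 in exposed C57 sons, and Lcn2 and Saa3 are highest in exposed FVB sons at 97932 and 4880.

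The genes most like each member were found by the root mean square difference in centred log2 counts over the 5 conditions, among 17700 genes. With 5 points that share library sets, this describes the profiles only. For Saa1 the nearest gene was Cxcl1 (0.54), a neutrophil-attracting chemokine, with 342.6 counts in C57 controls, 17.3 in exposed C57 sons and at most 5.69 in the other 3. Next came Saa2 (0.60), Orm2 (0.77), Mir5112 (0.83) and Dnase2b (0.88). For Saa2 they were Saa1 (0.60), 9530003J23Rik (1.02), the seminal vesicle gene Svs3a (1.04), Cxcl1 (1.10) and Orm2 (1.14). For Orm2 they were Mir122 (0.38), the liver microRNA gene, Serpina4-ps1, AI182371, Hp and Fabp2.

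The remaining members were nearest to liver-expressed genes or to others. Orm1 was nearest to Wfdc21 (0.17) and Apcs (0.23), Apcs to the complement genes C9 (0.21) and C8b (0.23), Crp to the coagulation factor gene F9 (0.10), and Itih4 to Ces3b (0.13) and the hepatocyte receptor gene Asgr1 (0.13). Saa4 was nearest to Bbox1 (0.30) and Sds (0.33). Saa3 was nearest to Agt (0.21), the angiotensinogen gene, with 771 and 821 counts in C57 controls and exposed C57 sons, and then to Cyp26a1 (0.23). Lcn2 was nearest to Syn1 (0.06), Gm38404, Cyp27b1, Zfp92 and Nrgn, which had at most 69.0 counts in any condition and so lay far below it.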

How the data were processed

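All-RNA-seq libraries of cauda epididymal sperm, 25 in all and 5 per condition, were grouped by their labels. The authors clipped adapters, kept reads of at least 18 bases, mapped them to mm10 with TopHat and ran Cuffdiff on the 5 conditions, and the submitters' processing notes also name CASAVA 1.8.2. The deposited values are a signal, 1 estimated fragment count per gene and condition scaled between libraries and not divided by gene length, with a model variance. The release of the annotation is not given in the sources used here. The 10 other variance columns were not used. Failed estimates (71 genes in at least 1 condition) were treated as missing.

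Ratios were taken on a log2 scale after adding 1. A gene needed 10 counts in 1 compared condition and was called at 2 log2 units, and 3 counts were taken as the limit of detection. Counting intervals are 95% Clopper-Pearson intervals. With 1 value per condition there was no test. The genes described are the 10 acute phase genes, the lists of other acute phase genes, of inducing cytokines and factors, receptors, relatives, genome neighbours and cell type markers, and, for each of the 10, the 5 genes of smallest root mean square difference. Members and lists were chosen with earlier results of these data known. Positions come from GENCODE M21 and promoters from RefSeq (GRCm38.p6). Alternatives were 3 scalings, 0.1 or 10 added, 100 counts or no minimum required, 1 log2 unit as the threshold, a difference past the model's SD and, chosen after seeing the data, values under 3 counts set to 3, Lcn2 left out, and coding length. Scripts were tested on simulated data for exposed C57 sons against C57 controls, with 200 of 16825 genes changed by 3 log2 units. The calling rule found 193 of them, with 0 in the wrong direction. It also called 200 unchanged genes, so a call alone can be false. The scripts ran under Python 3.11.15 (pandas 2.3.3, numpy 2.4.6, scipy 1.17.1, matplotlib 3.10.9) with biopython 1.88.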

Additional observations from a re-analysis of the deposited data

How the results depend on the processing

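Of 217 counts and medians recomputed under the alternatives, 206 stayed within 1.5 times of the reported count or 0.5 log2 units of the reported median. The other 11 moved further or changed sign. With a threshold of 1 log2 unit, the genes called lower in exposed C57 sons against C57 controls were 6, those called lower in FVB controls against C57 grandsons were 3, and those called higher were 1 in exposed FVB sons against FVB controls (Saa3), 1 in C57 grandsons against exposed C57 sons (Lcn2) and 5 in the strain difference, as a lower threshold must give. With 10 added, the median was -4.60 in C57 grandsons against C57 controls, -2.60 against exposed C57 sons and -5.19 in FVB controls against C57 controls. With a minimum of 100 counts it was -4.16 over 7 genes in C57 grandsons against exposed C57 sons. In exposed FVB sons against FVB controls the median was 0.80 with that minimum, from Lcn2 alone, and 0.027 with no minimum, so its sign is not settled. Values under 3 counts set to 3, or 10 added, left 6 or 5 of the 7 genes called lower in C57 grandsons against exposed C57 sons. Of 350 log2 ratios of single genes, 0 that were called changed sign, and 4 small ones did. Equal totals turned Saa3 in C57BL/6J to 0.07, and Saa1 and Crp in FVB/N to -0.09 and -0.09, and 0.1 added turned the Apcs strain difference to -0.14. Equal totals moved the median of all genes by up to 0.31 log2 units (C57 grandsons against C57 controls). Counts over all genes depended on the settings more. In exposed C57 sons against C57 controls, 6 higher and 43 lower became 184 and 193 at 1 log2 unit, 3 and 27 with a minimum of 100 counts, and 3 and 26 past the model's SD. In exposed FVB sons against FVB controls, 109 higher and 3 lower became 355 and 102 at 1 log2 unit. Coding in place of exon length raised each level and changed the order of the genes, and the coding length of a protein table was not run. Leaving out single libraries was not run, since each condition has 1 value. No paired analysis was possible because the columns hold 1 combined value per condition and carry no replicate numbers. Saa1, Saa2, Orm2 and Apcs had under 10 counts in both FVB/N conditions, which limits what their ratios there can show.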

Other observations

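Genome neighbours of the 10 genes and the receptors that bind their proteins were described too. Of 14 neighbours, 13 were tested in exposed C57 sons against C57 controls and 0 were called in either direction, with a median of 0.07 and a range from -0.41 (Gtf2h1) to 0.51 (Slc25a25). Beside the Saa cluster, Ldha had 1485 counts in C57 controls and 1216 in exposed C57 sons, and Hps5 had 290.7 and 309.8. Of 16 receptors and binding partners, 15 were tested in the same comparison and 0 were called, with a median of 0.27. The largest count was that of Lrp2, the epithelial receptor megalin that takes up lipocalins, with 10385 counts in C57 controls, 11306 in exposed C57 sons, 14973 in C57 grandsons, 19806 in FVB controls and 19582 in exposed FVB sons. Slc22a17, a receptor for Lcn2, had between 41.1 and 64.3 counts. Asgr1, the hepatocyte asialoglycoprotein receptor, had 769 counts in C57 controls and 8.29 in FVB controls. In exposed FVB sons against FVB controls, 0 of 12 receptors and 0 of 13 neighbours were called.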
